A study of Homo sapiens with 6 samples.

Results

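The genes described here build and regulate the contractile actin filaments of smooth muscle: TAGLN, CNN1, FLNC, FHL1, MYLK, TPM1, TPM2, MYL9, CALD1 and ACTA2. They were chosen by symbol, and with their difference between the groups known, so that difference is given below as a description and without a test. Of the 10 genes, 8 had a row among the 12396 genes analysed, while MYL9 and ACTA2 had none and are not analysed here. The libraries came from JHH-4, an established human hepatocellular carcinoma cell line labelled as epithelial-like. RNA-seq compared control cells, whose genotype is labelled WT, with cells given a plasmid for the primary transcript of hsa-miR-372-3p, to overexpress it. Neither what the control cells received nor whether the plasmid was integrated is stated in the labels. Each group held 3 libraries, which the series calls technical replicates, so errors and p-values measure only the spread between these libraries.

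In smooth muscle cells, myosin pulls on actin filaments once its regulatory light chain is phosphorylated, chiefly by the calmodulin-dependent kinase that MYLK encodes. Tropomyosins lie along the actin filament, and calponin and caldesmon bind it and restrain the myosin ATPase. Transgelin and filamins bundle or crosslink filaments. Many of these genes are known targets of serum response factor (SRF), which binds the CArG box and works with the cofactors myocardin, MRTFA and MRTFB. Several also respond to TGF-beta and mark myofibroblasts, the contractile cells of liver scars, while epithelial cells use mainly the nonmuscle relatives of the same families.

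The overexpressed microRNA and the stretches of member genes that its seed can pair with are shown first, because they separate members that hold such a match from those that do not. In the mature hsa-miR-372-3p (RefSeq, GRCh38.p14, chr19:53787931-53787953, plus strand), capitals mark the seed, bases 2 to 8. In the 3′ UTR stretches, read from GENCODE 29 transcripts (GRCh38), capitals mark the match.
hsa-miR-372-3p: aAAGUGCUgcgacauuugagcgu
TPM2 (chr9:35682661-35682688, minus strand): ctgacctcagAGCACTTAgctggggttc
CNN1 (chr19:11550259-11550285, plus strand): ttgtaatgagAGCACTTtctttttttt
MYLK (chr3:123612918-123612944, minus strand): cactacattgGCACTTAaattttttct
CALD1 (chr7:134968745-134968770, plus strand): tgttgtttctGCACTTtataataaag
The longest annotated 3′ UTR of TAGLN (423 nt), FHL1 (1405 nt) and FLNC (751 nt) held no GCACTT, the core match. TPM2 held AGCACTTA, the longest match searched, although in only 1 of the 8 protein-coding TPM2 transcripts with a 3′ UTR. CNN1 held AGCACTT in 2 of 5 such transcripts, MYLK held GCACTTA in 5 of 7, and CALD1 held only GCACTT, in 6 of 7. In TPM1, each match lay in 1 of 16 transcripts, and only 1 of the 4 matches, at chr15:63064716-63064722, was AGCACTT. The search read 12192 genes along their transcripts. Of these, 4.05% held AGCACTTA in their longest 3′ UTR, 25.5% held AGCACTT (AGCACTTA included), and 40.6% held any GCACTT. Which transcripts the cells made was not measured.

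TAGLN encodes transgelin, also called SM22-alpha, which binds and bundles actin filaments. Replicates 1 to 3 of the control had 91, 49 and 69 reads for it, and those of the overexpression group 2149, 1966 and 2132. Libraries are given in that order throughout. Scaled to sequencing depth as CPM (read counts per 1000000 reads of the TMM-scaled library), these values were 1.94, 1.05 and 1.42 CPM in control and 35.8, 38.9 and 38.0 CPM in overexpressing cells. All 3 overexpression libraries lay far above all 3 controls, the lowest of them 18.5 times the highest control. The means were 1.47 ± 0.445 and 37.6 ± 1.58 CPM (SD, n = 3), a 25.5-fold difference with a 95% confidence interval of 20.1 to 32.3. On the log2 scale this is 4.67 with a standard error of 0.15, the fifth highest of the 12396 genes. Controls varied among themselves by 30.3% of their mean, against 12.0% from counting alone, so the controls differ by more than counting noise. On the log2(FPKM + 1) scale the difference was 3.97. TAGLN lies at chr11:117199321-117204782 on the plus strand (GRCh38, GENCODE 29), and its 3′ end overlaps that of PCSK7, a proprotein convertase gene on the minus strand, over 446 exonic bases. The library kit does not mark strand, so reads from that stretch cannot be told apart. PCSK7 stood at 71.5 ± 2.86 CPM in control and 63.5 ± 2.78 CPM (SD, n = 3) with overexpression, and its log2 fold change was −0.17 ± 0.051 (SE; edgeR adjusted p = 0.0182), in the other direction from TAGLN; PCSK7 did not pass without control replicate 1 (adjusted p = 0.0720) or overexpression replicate 3 (adjusted p = 0.0814).

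CNN1 encodes calponin 1, which binds actin and inhibits the myosin ATPase, and is a marker of differentiated smooth muscle. It had 89, 143 and 118 reads in control and 483, 379 and 355 with overexpression, or 1.90, 3.07 and 2.43 against 8.05, 7.50 and 6.33 CPM. The groups did not overlap, but both were spread widely, by 23.8% of the mean in control and 12.0% with overexpression. The log2 fold change was 1.57 with a 95% confidence interval of 1.15 to 1.98, or 2.96-fold.

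FLNC encodes filamin C, the muscle filamin, which crosslinks actin filaments and ties them to the membrane. It is the member with the most precise difference: 281, 282 and 280 CPM in control against 865, 847 and 827 CPM with overexpression. Its counts were 13205, 13156 and 13582 in control and 51851, 42832 and 46346 with overexpression. The log2 fold change was 1.59 with a 95% confidence interval of 1.51 to 1.67, or 3.01-fold.

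FHL1 encodes a LIM-domain scaffold protein of muscle that binds titin and signalling kinases. Its counts were 151, 134 and 132 in control and 598, 520 and 565 with overexpression, or 3.22, 2.88 and 2.72 against 9.97, 10.3 and 10.1 CPM. The overexpression libraries lay close together and well above the controls, with a log2 fold change of 1.78 and a 95% confidence interval of 1.53 to 2.04 (3.44-fold). The intervals of FHL1, FLNC and CNN1 overlap, so the order among these 3 genes is not resolved, while that of TAGLN lies above all of them.

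**Figure D1:**
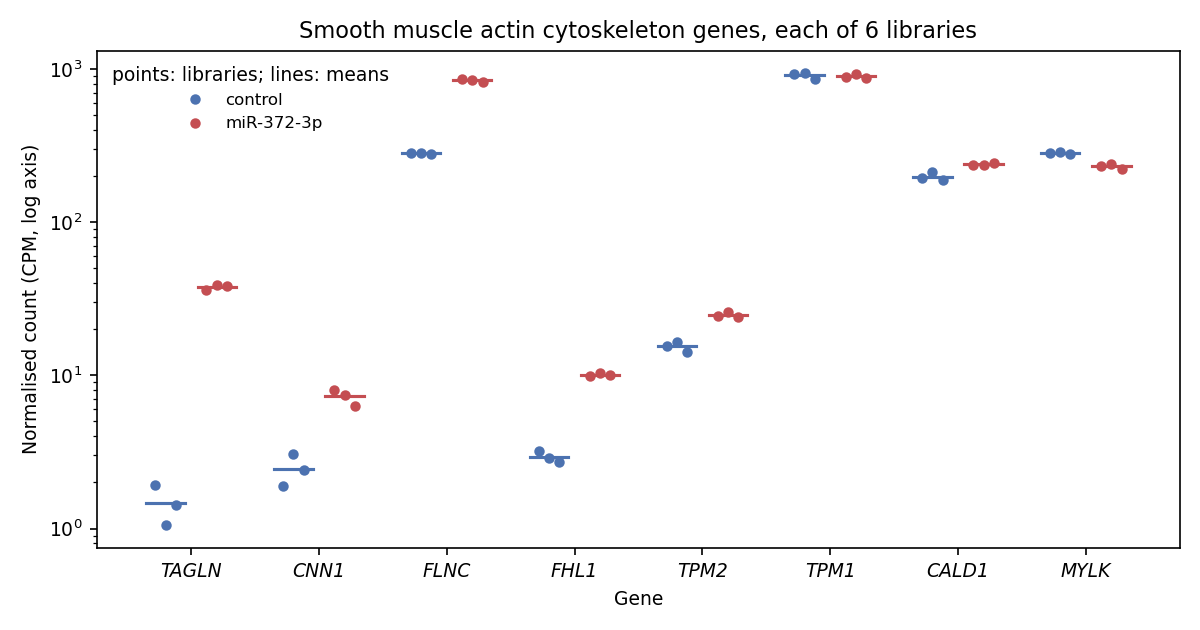
Normalised count (CPM, log axis) of the 8 measured genes in each of the 6 libraries: points are libraries, lines group means, blue control and red miR-372-3p overexpression. TAGLN goes from 1.47 to 37.6 CPM, CNN1, FLNC and FHL1 move about alike, and TPM1 points of the 2 groups overlap.

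The tropomyosin genes differed from each other. TPM2, which encodes beta-tropomyosin, had 15.6, 16.5 and 14.3 CPM in control and 24.3, 26.1 and 24.2 CPM with overexpression, without overlap. This was a 1.61-fold difference (log2 fold change 0.68, 95% confidence interval 0.52 to 0.85). TPM2 is the member with the longest seed match shown above, in 1 of 8 transcripts, and an effect of that match was not tested. TPM1, which encodes alpha-tropomyosin, had 928, 936 and 856 CPM in control and 892, 921 and 871 CPM with overexpression. Its groups overlapped, and the log2 fold change of −0.02 had a 95% confidence interval of −0.11 to 0.08.

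CALD1 encodes caldesmon, an actin-binding inhibitor of the myosin ATPase that exists in a long smooth muscle form and a short form of other cells. It had 195, 211 and 189 CPM in control and 238, 236 and 242 CPM with overexpression. All overexpression libraries were above the controls, by 1.20-fold on average (log2 fold change 0.27, 95% confidence interval 0.17 to 0.36). MYLK, the myosin light chain kinase gene, was the only measured member that was lower in all 3 overexpression libraries, at 232, 238 and 223 CPM against 284, 286 and 277 CPM in control. The log2 fold change was −0.29 with a 95% confidence interval of −0.37 to −0.20, or 1.22-fold lower. Besides nonmuscle and smooth muscle kinases, MYLK also gives rise to telokin, a short protein from an internal promoter; counts per gene do not separate these forms, nor those of CALD1, TPM1 and TPM2.

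Among the 8 measured members, 6 were higher without overlap between the groups, against 30.7% of all genes, 1 was lower without overlap, against 31.4%, and 1 overlapped. A log2 fold change of at least 1 was seen in 4 of the 8, and in 2.95% of all genes higher by that much. The median log2 fold change was 1.12 for the members and 0.0013 for all genes. Since the members were chosen on this contrast, nothing is read from these shares. Log2 fold changes in the authors' deposited table were 4.68 for TAGLN, 1.78 for FHL1, 1.59 for FLNC, 1.57 for CNN1, 0.68 for TPM2, 0.26 for CALD1, −0.02 for TPM1 and −0.29 for MYLK.

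Levels of different genes can be set side by side in the deposited FPKM values, which the authors scaled to gene length. In control cells TPM1 was highest, at 474 ± 19.7 FPKM (SD, n = 3), followed by CALD1 at 43.0 ± 1.76, MYLK at 30.8 ± 1.91, FLNC at 27.2 ± 0.183 and TPM2 at 12.0 ± 0.660 FPKM. CNN1 (1.35 ± 0.318 FPKM), TAGLN (1.03 ± 0.345 FPKM) and FHL1 (1.00 ± 0.0773 FPKM) were lowest and did not differ beyond their spread. These cells thus held tropomyosin, caldesmon, kinase and filamin C transcripts before overexpression, and TAGLN, CNN1 and FHL1 near the bottom of the set. With overexpression TPM1 stayed highest (464 ± 4.40 FPKM), and FLNC (82.2 ± 2.60 FPKM) stood above CALD1 (53.7 ± 0.276 FPKM). TAGLN moved up to the fourth place, at 30.5 ± 1.13 FPKM, above MYLK (24.5 ± 0.588 FPKM) and TPM2 (19.0 ± 1.06 FPKM). CNN1 (4.07 ± 0.438 FPKM) and FHL1 (3.85 ± 0.328 FPKM) remained lowest and within each other's spread.

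The relatives of the same protein families, listed apart from the members, show how much of each family the members made up. Of 17 relatives measured, 8 rose and 4 fell past an edgeR adjusted p of 0.05, against 26.8% and 27.7% of all genes, with a median log2 fold change of 0.08. Here and below, values after ± on the log2 scale are standard errors. In the transgelin family, TAGLN held 0.432, 0.233 and 0.318% of the summed FPKM in control and 10.2, 10.9 and 10.3% with overexpression. TAGLN2, the widely expressed transgelin, fell 1.19-fold (log2 fold change −0.25 ± 0.041 SE, edgeR adjusted p = 0.000554), from 310 to 261 FPKM on average. TAGLN thus stayed a minor part of transgelin transcripts even after its 25.5-fold difference.

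Of the FPKM of FLNC and FLNA together, FLNC held 5.39 ± 0.0499% in control and 13.8 ± 0.114% with overexpression (SD, n = 3). FLNA, a nonmuscle filamin, rose by 0.10 ± 0.032 on the log2 scale (edgeR adjusted p = 0.0192), a call lost without control replicate 1 (edgeR adjusted p = 0.0762) or without overexpression replicate 1 (0.106) or 2 (0.0919). In the calponin family, CNN1 went from 0.795 ± 0.171% to 1.75 ± 0.165% of FPKM. The nonmuscle calponins CNN2 (0.51 ± 0.044) and CNN3 (0.36 ± 0.035) both rose and made up nearly all calponin transcripts in each group. Of the FHL genes, FHL1 went from 2.60 ± 0.277% to 6.79 ± 0.535% of the family's FPKM, while FHL3 rose by 0.81 ± 0.055 and FHL2, the main form, by 0.30 ± 0.048 on the log2 scale.

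Among tropomyosins, TPM2 went from 1.55 ± 0.0316% to 2.39 ± 0.0461% and TPM1 from 61.3 ± 1.86% to 58.7 ± 2.73% of FPKM (SD, n = 3). TPM4 rose (0.22 ± 0.043) and TPM3 did not pass (0.08 ± 0.039, edgeR adjusted p = 0.111, and 0.0435 without control replicate 2). The cytoplasmic actins ACTB (−0.06 ± 0.047, edgeR adjusted p = 0.281, and 0.0259 without control replicate 3) and ACTG1 (−0.02 ± 0.033, edgeR adjusted p = 0.575) did not pass either, nor did the nonmuscle regulatory light chains MYL12A and MYL12B. The skeletal muscle kinase gene MYLK2, at 2.56 ± 0.192 CPM in control, fell 2.97-fold (−1.57 ± 0.187, edgeR adjusted p = 7.95e-05). Near-identical coding stretches of actins, tropomyosins and light chains make the split of reads within those families uncertain.

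**Figure D2:**
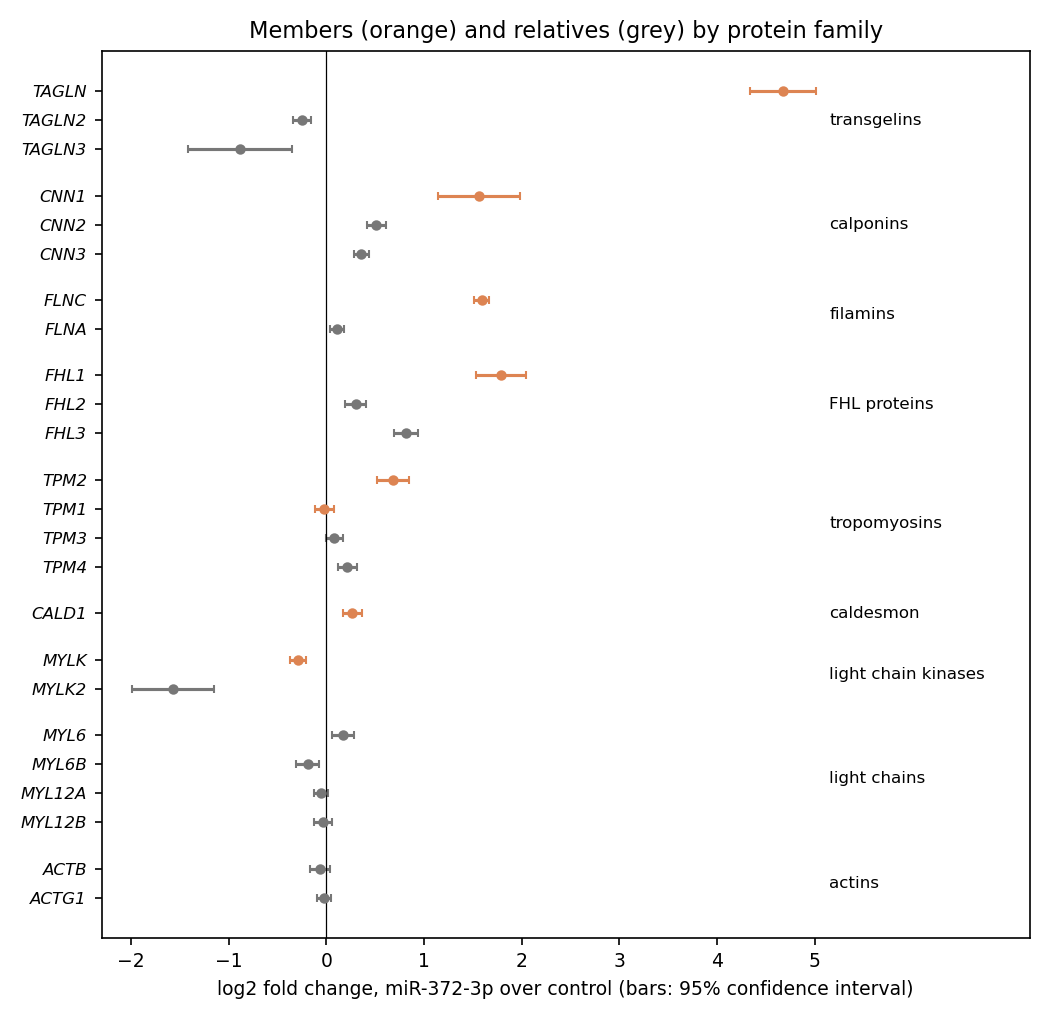
Log2 fold change of overexpression over control with 95% confidence intervals for the 8 members (orange) and relatives (grey), by protein family. TAGLN, at 4.67, stands apart from TAGLN2 and TAGLN3, both below 0, while CNN2, CNN3, FLNA, FHL2 and FHL3 are also above 0.

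**Figure D3:**
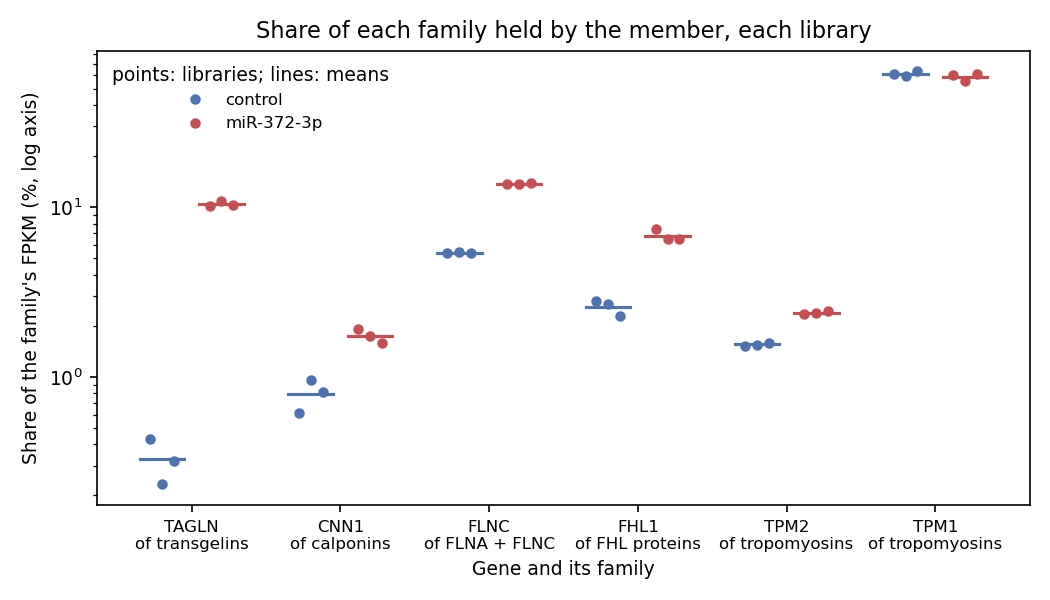
Share of the family's summed FPKM held by each member (percent, log axis) in each of the 6 libraries, blue control and red overexpression, with lines at the group means. TAGLN goes from 0.328 to 10.4% of transgelins and FLNC from 5.39 to 13.8% of FLNA and FLNC together, and the TPM1 share of tropomyosins overlaps between the groups.

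The other genes of the smooth muscle programme were taken from a list of 36, of which 23 had a row. Of these, 14 rose and 6 fell, against 26.8% and 27.7% of all genes, with a median log2 fold change of 0.33. The largest rise was that of MRVI1, an inositol trisphosphate receptor partner that is a target of cyclic GMP-dependent kinase (2.10 ± 0.301, edgeR adjusted p = 0.000258). MRVI1 was low and uneven in control, at 0.447, 0.944 and 1.26 CPM, against 3.72, 3.62 and 4.09 CPM with overexpression. SYNPO, an actin-bundling protein (1.35 ± 0.097), and ITGA7, a laminin-binding integrin of muscle (1.11 ± 0.102), rose too. SMTN, which encodes the actin-binding protein smoothelin, went the other way and fell 2.15-fold (−1.10 ± 0.047, edgeR adjusted p = 1e-07), from 322 ± 18.4 to 150 ± 4.28 CPM (SD, n = 3). MYH11, which encodes the smooth muscle myosin heavy chain, DES, LMOD1 and the coactivator gene MYOCD had no row and are not analysed here.

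SRF and its actin-responsive cofactors MRTFA and MRTFB had small differences. SRF itself had 69.4, 74.3 and 65.4 CPM in control and 79.8, 77.4 and 73.6 CPM with overexpression and did not pass (0.14 ± 0.057, edgeR adjusted p = 0.0573), but passed in DESeq2 (adjusted p = 0.0401) and without control replicate 2 (edgeR adjusted p = 0.0121). MRTFA rose by 0.17 ± 0.046 (edgeR adjusted p = 0.0118, but 0.0585 without control replicate 1 and 0.0612 without overexpression replicate 1), and MRTFB did not pass (0.06 ± 0.066, edgeR adjusted p = 0.450). ELK3, a ternary complex factor that binds DNA with SRF, rose by 0.66 ± 0.044. Of all genes, 26.8% rose and 27.7% fell in edgeR. Of the 19 genes measured on the list of SRF, its cofactors and other known targets, 11 rose and 0 fell, and the median was 0.31. At an unadjusted edgeR p under 0.05, 12 were higher and 0 lower, and DESeq2 also called 12 higher and 0 lower, but without control replicate 3 edgeR called 11 higher and 1 lower, ELK1, a partner of SRF (−0.13, adjusted p = 0.0259; named after its values were seen). The largest changes past the test were those of ANKRD1 (1.92 ± 0.041), FOSB (1.69 ± 0.240), CCN2 (1.40 ± 0.051) and KLF5 (1.18 ± 0.110); ANKRD1 and CCN2 are also known targets of YAP and TAZ, and KLF5 is a transcription factor of proliferating smooth muscle. VCL, which encodes vinculin, had a log2 fold change of 0.05 ± 0.041 (edgeR adjusted p = 0.337), and EGR1 one of −0.08 ± 0.210 (edgeR adjusted p = 0.771).

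CArG boxes were sought because many of the members are known SRF targets. In RefSeq promoter windows (GRCh38.p14, 250 bases before to 50 after each start), which hold 7 of the 8 measured members but not TAGLN, a CArG box was found in 1 of 12 FHL1 windows and in the single MYLK window. It was found in none of the windows of CNN1, FLNC, TPM1, TPM2 and CALD1, which number 1, 1, 1, 2 and 4. Of 14789 windows of the genes analysed, 1.14% held one. Both boxes are shown in capitals with the bases beside them.
FHL1 (chrX:136196911-136196940, plus strand): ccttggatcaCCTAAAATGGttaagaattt
MYLK (chr3:123620623-123620652, minus strand): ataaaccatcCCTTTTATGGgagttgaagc
The FHL1 box begins 126 bases and the MYLK box 94 bases before the start of its window's transcript. The MYLK window lies near the 3′ end of the gene (chr3:123610049-123884331), inside its body. FHL1 was 3.44-fold higher and MYLK 1.22-fold lower with overexpression, counted over all transcripts of each gene. Transcripts that start at these 2 windows were not counted apart, and a role of the boxes was not tested. GGAATG, the core of the TEAD motif, lay on either strand in the FLNC window, in 1 of 12 FHL1 windows, in the MYLK window and in 2 of 4 CALD1 windows, and in 11.7% of the windows of the genes analysed. Such matches describe these windows only.

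Of 48 genes of actin assembly and focal adhesion, 21 rose and 10 fell, against 26.8% and 27.7% of all genes. The median log2 fold change of the 48 was 0.10. Without control replicate 1, 17 of them rose and 6 fell. LIMA1 (0.59 ± 0.060) and ACTN1 (0.51 ± 0.049), which bundle or crosslink actin, and the adhesion protein gene ZYX (0.48 ± 0.051) rose, while TMOD2, which caps the slow-growing end of the filament, fell (−1.40 ± 0.158, edgeR adjusted p = 5.52e-05).

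**Figure D4:**
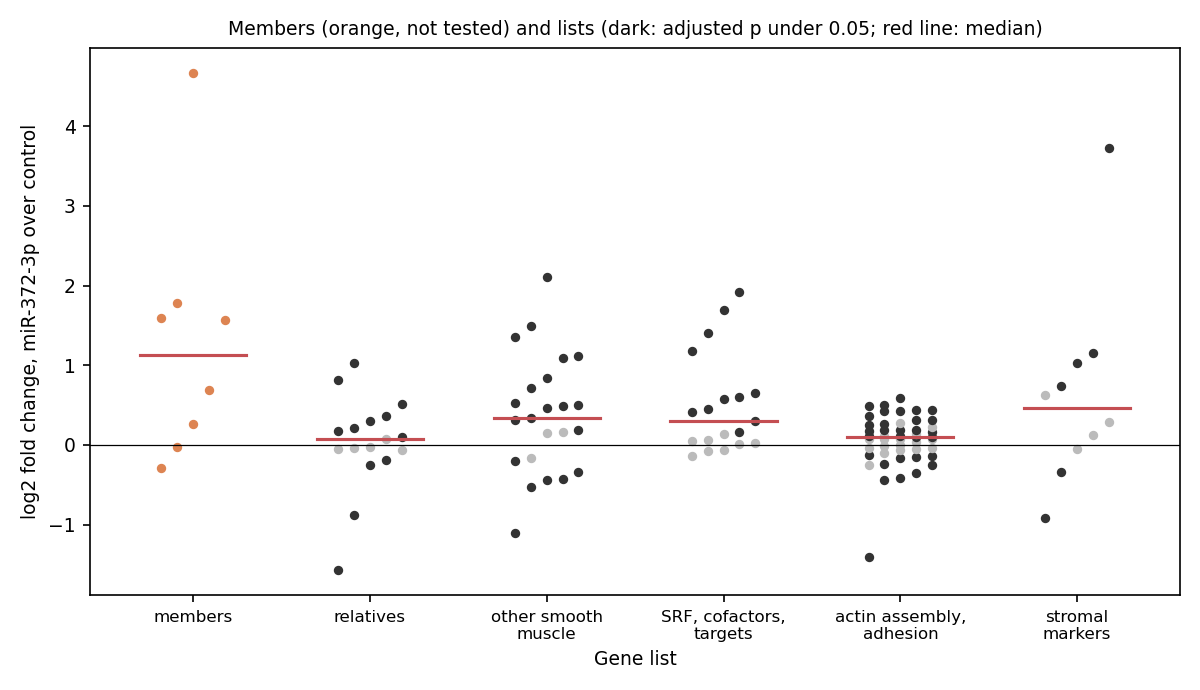
Log2 fold change of overexpression over control for the 8 members (orange, not tested) and for each gene of 5 lists (dark where the edgeR adjusted p was under 0.05, grey where not), with a red line at the median. The medians are 1.12 for the members, which were chosen on this contrast, 0.33 for other smooth muscle genes and 0.10 for genes of actin assembly and adhesion.

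Markers of other cell types were measured beside the members, because bulk RNA does not separate a change per cell from a change in the share of cells that make a transcript. The epithelial keratins KRT8 and KRT18 were high in both groups and rose with overexpression, to 3324 and 1441 CPM on average, and SERPINA1, which encodes the alpha-1-antitrypsin made by hepatocytes, fell (−2.35 ± 0.169). ALB, AFP, APOA1, APOB, TTR and HNF4A had no row. The hepatocyte origin could thus be checked on 5 of 13 hepatocyte and epithelial markers only, KRT8 and KRT18 included. Of these 5, 3 rose and 2 fell, against 26.8% and 27.7% of all genes, so they did not move together. Of 10 measured stromal markers out of 17 listed, 4 rose and 2 fell, against 26.8% and 27.7% of all genes. The summed level of the 10 was 568 to 617 CPM in control and 643 to 651 CPM with overexpression. COL1A1 rose 13.2-fold (3.72 ± 0.197, edgeR adjusted p = 3.63e-07) and PDGFRB, a receptor of pericytes and stellate cells, rose by 1.16 ± 0.079. COL1A1 was uneven in control, at 7.09, 4.03 and 3.40 CPM, against 62.5, 68.1 and 61.3 CPM with overexpression. RGS5, a pericyte marker, fell by 0.92 on the log2 scale (SE 0.052), and COL1A2 (0.29 ± 0.534, edgeR adjusted p = 0.668, and 0.0396 without control replicate 1), LUM (−0.06 ± 0.181, edgeR adjusted p = 0.814) and VIM (0.12 ± 0.062, edgeR adjusted p = 0.128) did not pass. None of the 10 was at 0 in a whole group; COL3A1, DCN, NOTCH3, PECAM1, VWF, CDH5 and PTPRC had no row. The part of other cells in the members' differences was not tested. Of 29 sarcomere genes of striated muscle, 5 had a row: MYH3 and TCAP rose, TNNT1 fell (−0.71 ± 0.055), NEB did not pass, and TTN rose in edgeR (0.46 ± 0.134, adjusted p = 0.0149) but not without control replicate 1 (0.0588) or overexpression replicate 1 (0.0704).

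The genes whose profile over the 6 libraries lay nearest to that of TAGLN were GGT5, KRT81, KISS1, ABI3 and COL1A1. The measure was the root mean square difference of log2 CPM centred on each gene's mean, over genes averaging 2 CPM or more, and it was 0.24, 0.31, 0.43, 0.48 and 0.50 in that order. GGT5, a glutamyl transferase gene, had 0.682, 0.429 and 0.474 CPM in control and 11.7, 9.99 and 10.9 CPM with overexpression. The 6 libraries form 2 groups, so a gene with a like difference between them scores as near. No other member was among the nearest.

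Sequencing depth did not limit these comparisons equally. Total counts over the genes analysed were 46851245 to 47890069 in control and 51072581 to 60070397 with overexpression. TAGLN, CNN1 and FHL1 rested on 209, 350 and 417 control reads in total, whereas FLNC, MYLK and TPM1 had 39943, 40081 and 128763. On the second principal component, control replicate 3 lay away from replicates 1 and 2, and without it the log2 fold changes of the members moved by less than the spread between libraries. Mitochondrially encoded transcripts summed to 45576 to 66022 CPM in control and 59133 to 63688 CPM with overexpression, without separating the groups.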

How the data were processed

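RNA-seq covered 6 libraries of JHH-4 cells, grouped and numbered by their titles. Per the file headers, the authors' table holds raw read counts, FPKM, and the comparison's p-value and log2 fold change. The submitters' processing notes name GRCh38 and, with no roles, HISAT2 (2.0.4), StringTie (2.2.1) and DESeq2 (1.38.3); how reads were counted is not stated. Of 14006 rows, 1610 had no gene name (2.64 to 3.63% of counts) and were left out; the lowest row total is 208 counts. The deposited p-value was not used.

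Tests used edgeR 4.0.16 (R 4.3.3, TMM, quasi-likelihood, no block; filterByExpr removed 0 genes), Benjamini-Hochberg adjusted over 12396 genes at 0.05, and were tested on simulated data. Log2 CPM for profiles used a prior count of 2. Chi-square per degree of freedom between replicates ran from 6.86 to 38.6, above counting noise. The members and lists were chosen with earlier results of these data known. Named genes were the members, from each list the up to 4 largest changes past the threshold at 2 CPM or more (up to 2 for striated, stromal and hepatocyte lists), family relatives and the 5 nearest profiles; other list genes were added after their values were seen. Some genes and 1 list that these rules cover are not reported here. Alternatives were DESeq2 1.42.0, other scaling factors and filters, limma 3.58.1 on log2(FPKM + 1) and log2(FPKM + 0.1), a replicate block and leaving out each library.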

Additional observations from a re-analysis of the deposited data

How the results depend on the processing

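Under all 15 alternatives, the number of genes past the threshold, and the total in each list with both directions together, stayed within 1.5 times. By direction, the relatives that fell went from 4 to 2 with a minimum mean of 2 CPM. That filter left TAGLN3 and MYLK2 untested, at means of 1.29 and 1.71 CPM. The falls of the actin assembly list went from 10 to 6 without control replicate 1. The SRF list went from 0 to 1 fall without control replicate 3. The genes with the largest changes in each list kept direction and call wherever they were tested. Of the other tested genes named, FLNA, MRTFA, TTN and PCSK7 lost their call under some alternatives. Among these was limma on log2(FPKM + 1) for FLNA (adjusted p = 0.0851), TTN (0.641) and PCSK7 (0.0617). SRF (edgeR adjusted p = 0.0368 with the replicate number as a block), TPM3, ACTB and COL1A2 passed under some alternatives. COL1A2 changed sign, from 0.29 in the main fit to −0.18 when control replicate 3 was left out. The other genes among these 8 kept their sign. The median log2 fold change of the members, 1.12, was 0.87 on log2(FPKM + 1) and ran from 1.05 to 1.17 when each library was left out in turn; it was 1.05 without control replicate 1. On log2(FPKM + 1), a scale that understates changes of low genes, TAGLN had a difference of 3.97 in place of 4.67, CNN1 1.11 and FHL1 1.27. With one library left out, TAGLN ran from 4.49 to 4.92 and CNN1 from 1.41 to 1.76. The sign of TPM1 was not stable, from −0.06 to 0.0085. With the replicate number as a block, 6809 genes passed in place of 6761 and the members' median was 1.13. Same-numbered libraries correlated at −0.136 to 0.103 in their deviations from the group means. Control replicate 1 correlated best with overexpression replicate 2. These values gave no sign of pairing by number, but with 3 libraries per group they cannot settle it. In the controls, TAGLN and CNN1 varied by more (30.3 and 23.8% of the mean) than counting gives (12.0 and 9.26%), and FHL1 by about as much (8.66 against 8.48%).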
